A study of Mus musculus with 24 samples.

Results

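Kidney and left ventricle were compared within the same 4 young adult mice, gene by gene, from the whole-tissue RNA of each organ. Members were the 8 libraries, of 24 in the series, that the labels give as kidney or left ventricle at 16.5 weeks. All mice were C57BL6/J with no other allele or treatment named in the labels. Mice 14 and 15 were females and mice 19 and 20 were males, and each gave 1 kidney and 1 left ventricle library. The other 16 libraries were skeletal muscle at 16.5 weeks and all 3 tissues at 86 weeks. The labels do not state which part of the kidney was taken, and each library is a piece of tissue holding many cell types. A lower level of a gene can therefore mean fewer cells of a type or less of that RNA per cell, and these cannot be told apart here. Values for a gene are CPM (counts scaled to a common library size) after TMM scaling, listed in the order mouse 14, 15, 19 and 20. Differences are log2 kidney minus left ventricle, so a positive value is higher in kidney. Errors are SD for levels (n = 4 mice) and SE for log2 differences.

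The kidney filters blood in the glomerulus, where podocytes form the filter, and then reclaims most of the filtrate along the nephron. The proximal tubule takes back glucose, amino acids, phosphate and protein through a brush border, and makes glucose from other fuels. The loop of Henle and the distal convoluted tubule recover salt and divalent ions, and the collecting duct sets water, potassium and acid output through principal and intercalated cells. The wall of the left ventricle is mostly contractile muscle by volume. Its cardiomyocytes hold sarcomeres, the calcium stores that trigger them, junctions that couple cell to cell, and mitochondria that burn mainly fatty acids.

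Kidney and left ventricle differed in 30.1% of the genes tested. Of 40429 genes tested, edgeR's quasi-likelihood test with the mouse as a block called 12158 at an adjusted p under 0.05, with 6873 higher in kidney (17%) and 5285 higher in left ventricle (13.1%). Against a stricter question, whether a difference exceeds 4-fold, 1278 genes passed as higher in kidney (3.16%) and 678 as higher in left ventricle (1.68%). Of these, 1137 and 523 were protein-coding. Among 11824 protein-coding genes with at least 5 CPM in either organ, 4933 were called higher in kidney (41.7%) and 2824 higher in left ventricle (23.9%), and their median log2 difference was 0.25. The shares against which the counts of a list are read are these, since most list members are such genes. The kidney and left ventricle values did not overlap in 1277 of the 1278 kidney genes and in all 678 left ventricle genes. The exception was Gm29012, a long noncoding RNA whose lowest kidney library lay below its highest left ventricle library. The 1278 kidney genes took 17.6% ± 0.611 of all counts in kidney and 0.713% ± 0.0286 in left ventricle. The 678 left ventricle genes took 24.5% ± 0.515 in left ventricle and 0.644% ± 0.0835 in kidney. These genes were chosen on these libraries for a large difference, so the lack of overlap and the unequal shares largely follow from the choice. Both are a description and no test was made of them.

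How calls split between the organs depended on the scaling. Kidney-higher genes were 56.5% of the calls with TMM factors, 75% with library size alone and 35% with upper-quartile factors, and the median log2 difference of all genes moved from -0.107 to 0.178 and -0.398. With no low-count filter the kidney-higher share was 68.9%, without mouse 19 it was 68.1%, and it was 66% in a fit of all 24 libraries. Differences of 0.3 or less on the log2 scale are therefore read against this shift. Total counts per library ran from 59199894 to 74557144 in kidney and from 71093373 to 86164371 in left ventricle. A principal component with 67.3% of the variance separated the organs, and the next (8.12%) separated females from males in both. Olfactory receptor genes, which neither organ is known to use, gave a background: 95% of 1103 such genes were under 0.291 CPM per exon kilobase in left ventricle and 0.283 in kidney. By that measure 210 of the 1278 kidney genes were at background in left ventricle, and 147 of the 678 left ventricle genes were at background in kidney.

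Several libraries read transcripts of neighbouring or unlike tissue, and their part in the differences below was not tested. The left ventricle library of mouse 20 read more of many kidney transcripts than the other 3. Its proximal tubule transporters stood at a median of 1.25% of the kidney level of the same mouse in CPM, against 0.715 to 0.89% in the others, and took 0.0313% of its counts, against 0.0285 to 0.0305%. Kap, an androgen-responsive proximal tubule protein, read 0.049, 0.217, 0.251 and 8.76 CPM in left ventricle, and Umod, made by the thick ascending limb, 1.14, 1.195, 1.51 and 9.08 CPM. Atrial transcripts were high in the left ventricle library of mouse 19: Myl7, the atrial regulatory light chain, read 0.719, 0.423, 36.1 and 0.48 CPM, and Myl4, the atrial essential light chain, 3.33, 2.72, 50.002 and 3.29 CPM. The left ventricle library of mouse 15 was highest for Myh4, a fast skeletal myosin (1.81, 28.5, 1.97 and 2.09 CPM). Fat transcripts were high in the kidney library of mouse 15: adiponectin (Adipoq) read 0.262, 12.9, 0.244 and 0.59 CPM, adipsin (Cfd) 1.81, 89.4, 0.59 and 0.71 CPM and the brown fat uncoupling protein Ucp1 0.412, 37.3, 0.475 and 0.362 CPM. In the opposite direction, sarcomere genes in kidney stood at a median of 0.378 to 0.579% of the same mouse's ventricle. All 1278 kidney genes and all 678 ventricle genes kept their sign and an adjusted p under 0.05 when any 1 mouse was left out. The sets were chosen with all 4 mice, so much of this follows from the choice. With 1 mouse left out, 1146 to 1236 of the kidney genes and 601 to 665 of the ventricle genes passed the 4-fold test again.

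Of the 12 largest differences toward kidney among autosomal genes with at least 50 CPM, most were of proximal tubule genes. The X-linked S100g and Cltrn, described below with their segments, lay in the same range (log2 10.13 and 9.80). Kap had the largest difference, with 1982, 1668, 5150.2 and 4205 CPM in kidney. Its log2 difference was 12.40 ± 0.98, and it was 13.93 without mouse 20. Both male kidneys exceeded both female kidneys, and the organs did not overlap. Slc27a2, a very long chain acyl-CoA synthetase and fatty acid transporter, read 2571, 2089, 3512 and 3355 CPM in kidney and 1.62, 1.26, 1.39 and 13.5 CPM in left ventricle (log2 10.17 ± 0.59). Akr1c21, a steroid-metabolising aldo-keto reductase, differed by 10.62 ± 0.46, and Acsm2, a medium-chain acyl-CoA synthetase, by 10.01 ± 0.42. Without mouse 20 these 3 differences were 10.88, 11.24 and 10.005. Umod (uromodulin, chr7:119462711-119479282), the most abundant protein of normal urine, read 1783, 2111, 1658 and 1745 CPM in kidney. Lrp2 (megalin, chr2:69424340-69586065), the endocytic receptor that retrieves filtered protein, had the highest CPM of the nuclear protein-coding genes in kidney, 8115, 7956, 5903 and 5382. Its left ventricle values were 4.002, 5.92, 5.78 and 43.3 CPM, and its log2 difference of 9.69 ± 0.69 became 10.46 without mouse 20. Selenium-dependent Gpx3, the plasma glutathione peroxidase that the kidney secretes, was abundant in kidney but not among these 12. It read 3540.1 ± 429 against 38.9 ± 10.03 CPM. Klk1, a tissue kallikrein of the distal nephron, Miox, which opens the ring of myo-inositol, Cyp2j5, an epoxygenase, and Ugt2b38, a glucuronosyltransferase, were also in the group, with log2 differences of 9.69, 9.37, 9.78 and 9.27. Pck1, described below with glucose production, was another of the 12 (log2 9.505).

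**Figure D1:**
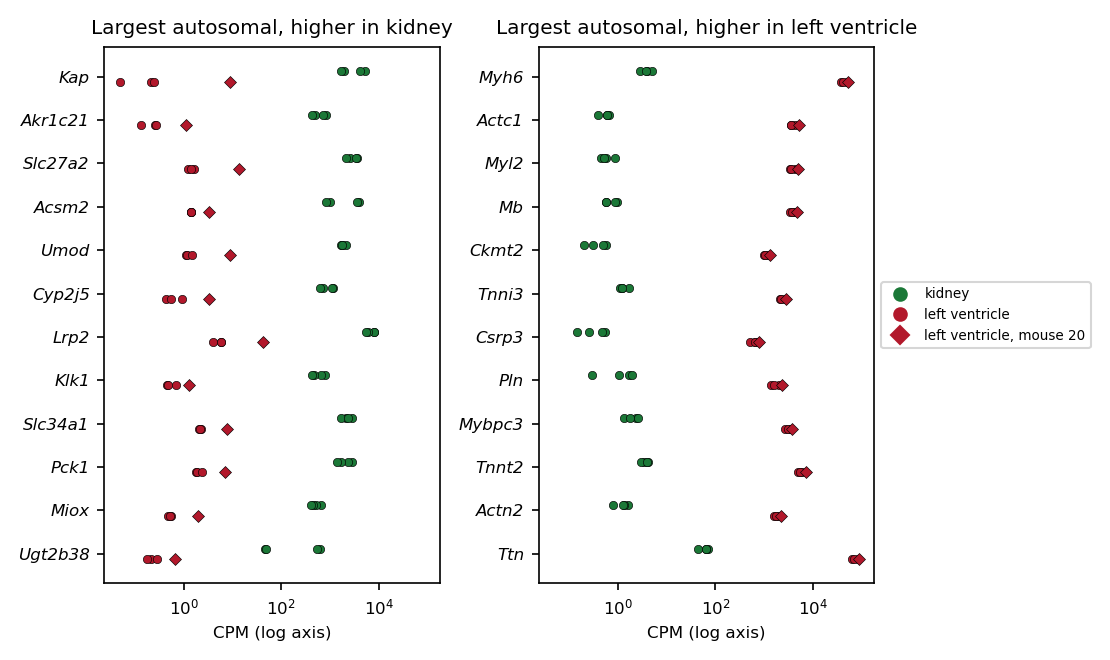
CPM of each library on a log axis for the 12 largest differences each way among autosomal genes with at least 50 CPM; green is kidney, red is left ventricle, and the diamond is the left ventricle of mouse 20. Organs do not overlap in any of the 24 genes, and in each kidney gene the diamond lies above the other 3 ventricles, as for Lrp2 (4.002, 5.92, 5.78 and 43.3 CPM).

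Short stretches before the start sites of organ genes are shown because a motif of Hnf4a, a nuclear receptor of liver and proximal tubule, had a larger share in the kidney set and muscle motifs in the ventricle set. The sequences are RefSeq promoters on GRCm38.p6, 250 bases before and 50 after each start, and 876 of 1137 kidney genes and 391 of 523 left ventricle genes had at least 1. Matches of CAAAGTCCA, an HNF4 core, were searched on both strands. They occurred in 15 of 876 kidney genes (1.71%), 2 of 391 ventricle genes (0.512%) and 91 of 16369 protein-coding genes tested (0.556%). Matches of AGATAAG, the core that zinc finger factors of the Gata family bind, occurred in 2.63%, 3.58% and 3.05%, close to the share in all genes in both sets. Over all 32851 promoters in the table the shares of the HNF4 and Gata cores were 0.475% and 3.04%, and their matches overlapped in no promoter. A match is a description of letters and not of a bound site, and no match says only that these letters are not in the window. The windows were chosen among genes with a match, and up to 25 bases on each side are shown. Capitals mark the match in each line, which runs 5′ to 3′ on the gene's strand. The genes are those for the cystine transporter subunit Slc3a1, the brush border enzyme trehalase (Treh) and the mitochondrial aminotransferase Agxt2.
Slc3a1: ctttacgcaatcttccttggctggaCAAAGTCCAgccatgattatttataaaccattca
Treh: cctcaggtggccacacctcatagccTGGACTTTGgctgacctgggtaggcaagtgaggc
Agxt2: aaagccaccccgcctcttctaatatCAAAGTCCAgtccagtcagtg
These windows lie at chr17:85028283-85028341, chr9:44673137-44673195 and chr15:10358487-10358532, all on the plus strand. Slc3a1 read 460.2, 426, 426 and 417 CPM in kidney and 0.947, 1.24, 1.01 and 3.25 CPM in left ventricle. Treh and Agxt2 differed by 5.24 and 6.20.

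The factor that binds this core was itself among the genes that separated the organs. Hnf4a read 522, 489, 669 and 654 CPM in kidney and 2.56, 2.499, 2.14 and 3.98 CPM in left ventricle (log2 7.73 ± 0.23). Of 28 kidney transcription factors tested, 25 were called higher in kidney, 1 higher in left ventricle and 2 were not called (median log2 3.62). Others of the group were Tfcp2l1, a factor of distal nephron and collecting duct (509 ± 97.99 against 4.33 ± 0.586 CPM), Nr1h4, the bile acid receptor FXR (log2 6.37), and Pax8, a factor of nephron development that stays on in the adult (58.1 ± 12.5 against 2.19 ± 0.557 CPM). The member higher in left ventricle was Bhlhe41, a clock-linked repressor, with 2.996, 3.22, 6.31 and 3.47 against 19.9, 13.8, 41.2 and 32.9 CPM. The 2 not called were Nr1i3 (log2 0.20) and Osr1 (log2 0.017). Hox genes, which mark position along the body axis, also differed: 27 of 39 were called higher in kidney and 2, Hoxa13 and Hoxc12, higher in left ventricle. The 2 exceptions were near 1 CPM or under it in both organs and did not keep their sign at 86 weeks (log2 0.13 and 0.079). Their edgeR adjusted p values were 0.0468 and 0.0489, and both calls were lost without mouse 14 (log2 -0.56 and -0.57) and without mouse 19 (-0.59 and -0.86), that of Hoxa13 also without mouse 15 (-0.84) and that of Hoxc12 also without mouse 20 (-0.87). Hoxd8 had the largest Hox difference, 66.3, 56.1, 40.2 and 45.9 CPM in kidney and 1.72, 1.63, 1.24 and 2.03 CPM in left ventricle, and Hoxd10, Hoxd9, Hoxb8 and Hoxa10 differed by 4.25, 4.07, 4.03 and 4.003.

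Proximal tubule genes were higher in kidney almost throughout. Of 36 transport genes tested, 35 were called higher in kidney and 34 passed the 4-fold test, with a median log2 difference of 6.86, where all genes tested had -0.107. Slc34a1, the sodium-phosphate cotransporter of the brush border (chr13:55398187-55415592), read 2115, 1673, 2844 and 2325 CPM in kidney and 2.27, 2.04, 2.16 and 7.61 CPM in left ventricle. Slc22a12, the urate exchanger, read 294, 293, 642 and 619.5 CPM in kidney, and Slc17a1, a phosphate and organic anion carrier, 152, 133, 278 and 241 CPM. Both were higher in the 2 male kidneys than in the 2 female kidneys, although their test of organ by sex gave adjusted p = 0.822 and 0.923. The member not called was Slco1a1, an organic anion carrier with almost no reads in female kidney, described with the other sex-dependent genes. DESeq2, limma-voom, RLE factors and the fit of all 24 libraries called it higher in kidney. So did the fits without the mouse block, without mouse 14 and without mouse 15. Aqp1, the water channel of proximal tubule and thin limb that vessels also carry, differed far less, with 411 ± 23.5 against 146 ± 24.9 CPM (log2 1.51). Brush border and apical enzyme genes were all called higher in kidney (18 of 18, median log2 7.23). They included Cltrn (collectrin, which brings amino acid carriers to the membrane, 435 ± 59.2 CPM), the aspartic protease Napsa (1003 ± 220.1 CPM) and the meprin subunit Mep1a (907 ± 269 CPM). The summed list for transport read 19866 to 22428 CPM in kidney and 262 to 418 CPM in left ventricle.

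Glucose production and amino acid breakdown, both proximal tubule functions, separated the organs as well. All 10 genes of gluconeogenesis and fructose use were called higher in kidney and passed the 4-fold test (median log2 4.87). Pck1, which commits oxaloacetate to glucose synthesis, read 2819, 2366, 1727 and 1429 CPM in kidney and 1.81, 1.92, 2.42 and 7.19 CPM in left ventricle. G6pc, the enzyme that releases free glucose, read 201, 221, 193 and 175 CPM in kidney and 0.947, 1.002, 0.813 and 1.36 CPM in left ventricle, with a narrow spread in each. Fbp1 and Khk, the bisphosphatase and ketohexokinase, differed by 9.24 and 4.96. Of 25 amino acid catabolism genes, 24 were called higher in kidney. Ass1, which makes argininosuccinate for renal arginine supply, read 1186 ± 341 against 4.15 ± 1.504 CPM. Hao2, a peroxisomal hydroxyacid oxidase, read 591, 489.8, 114 and 121 CPM in kidney, higher in females. The gene not called was Glul, glutamine synthetase (log2 0.41, adjusted p = 0.1 by edgeR). It was called higher in kidney by DESeq2 and limma-voom, with library size alone, with no low-count filter and without mouse 19 or 20. Peroxisomal genes were mixed: 21 of 26 were called higher in kidney and 3 higher in left ventricle. Among the 3 were Ech1, an enoyl-CoA isomerase that also serves mitochondria (log2 -1.88), and the fatty acid importer Abcd2 (-1.86). Pipox, which oxidises pipecolate and sarcosine, and Acox2, a branched-chain acyl-CoA oxidase, led the kidney side with log2 differences of 6.55 and 5.31, beside the omega-hydroxylase Cyp4a10 (7.36). Genes for detoxification followed, with 20 of 27 called higher in kidney and none higher in left ventricle (median log2 3.998). The median was 4.67 without mouse 14 and 4.62 without mouse 15, with 1 gene called higher in left ventricle in each case, and 4.94 without the mouse block and 5.08 in the fit of all 24 libraries. Their summed level ran from 4025 to 12442 CPM over the 4 kidneys. Among them Cyp2e1 (77.3, 72.1, 1155 and 990.2 CPM) and Ces1f (99.2, 76.9, 734 and 664 CPM) were higher in males.

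Salt-handling segments beyond the proximal tubule were called almost without exception. All 17 loop of Henle genes were higher in kidney. Slc12a1, the sodium-potassium-chloride cotransporter blocked by loop diuretics, read 1021, 1155, 832 and 1291 CPM in kidney and 1.29, 1.65, 1.596 and 6.26 CPM in left ventricle. Kcnj1, the channel that returns potassium to the lumen, read 182 ± 36.3 against 1.41 ± 0.389 CPM. Egf, whose precursor is made in this part of the nephron, reached 2377 ± 422 CPM in kidney and kept 22.5 ± 7.87 CPM in left ventricle. For the distal convoluted tubule, 14 of 16 genes were called higher in kidney. S100g and Calb1, the calbindins that carry calcium across the cell, read 264, 194, 144 and 140.1 and 408, 308, 176 and 179.7 CPM in kidney, higher in both females than in both males for each gene. Neither gene was called in the test of organ by sex. Slc12a3, the thiazide-sensitive cotransporter, read 1175 ± 323 against 6.03 ± 2.11 CPM, and Kcnj16, a basolateral potassium channel, 434 ± 23.04 against 1.77 ± 1.02 CPM. The kinase Stk39 (SPAK), which activates Slc12a3 and is not confined to the kidney, went the other way (log2 -0.89), and its upstream kinase gene Wnk1 was not called (log2 -0.37), although it was called higher in left ventricle with upper-quartile factors, a filter of 1 CPM in 4 libraries and limma-voom.

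Collecting duct genes followed the same direction. All 19 intercalated cell genes were called higher in kidney and passed the 4-fold test, with a median of 4.25. The V-ATPase subunits of the acid-secreting pump, Atp6v0a4, Atp6v1b1 and Atp6v1g3, read 220.2 ± 26.4, 77.3 ± 15.2 and 13.9 ± 3.92 CPM in kidney and between 0.292 and 1.92 CPM in left ventricle. Slc26a4 (pendrin), the chloride-bicarbonate exchanger of base-secreting cells, read 75.6, 65.8, 51.1 and 43.8 CPM in kidney. Car12, a membrane carbonic anhydrase, read 182, 150.2, 156 and 127 CPM. Of 14 principal cell genes, 11 were called higher in kidney. Aqp2, the vasopressin-regulated water channel, read 31.7, 30.9, 27.1 and 33.1 CPM in kidney and 0.833, 0.688, 0.842 and 1.52 CPM in left ventricle. Hsd11b2, which protects the mineralocorticoid receptor from glucocorticoids, and Scnn1a, the alpha subunit of the epithelial sodium channel, read 45.1 ± 8.95 and 71.8 ± 14.6 CPM. The 3 members not called were Elf5 (log2 0.35), St6gal1 (0.071) and the mineralocorticoid receptor gene Nr3c2 (-0.13). Genes of epithelial junctions were all higher in kidney (26 of 26, median log2 3.56). Among them were E-cadherin (Cdh1, 150.4 ± 6.19 against 1.82 ± 0.559 CPM), kidney cadherin (Cdh16, 349 ± 32.4 CPM) and the claudins Cldn2 and Cldn8 (log2 7.63 and 6.22).

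Podocyte and endocrine genes had smaller medians. Of 18 podocyte genes, 9 were called higher in kidney, 2 higher in left ventricle and 7 were not called (median log2 0.55). Nphs1 (nephrin), a slit diaphragm protein, read 31.3, 26.9, 17.6 and 14.8 CPM in kidney and 3.81, 3.54, 3.19 and 3.84 CPM in left ventricle. It was higher in the female kidneys but not called in the test of organ by sex. Npnt, a basement membrane protein that tubules also make, had the largest difference of the list (log2 5.67). The 2 members higher in left ventricle were Clic5 (-1.03) and Synpo (-0.88), an ezrin-linked channel protein and an actin-associated protein that muscle also expresses. Of 12 endocrine genes, 8 were called higher in kidney (median log2 1.94). With the filter of 1 CPM in 4 libraries, which left 11 of them, the median was 3.14, and among genes over the olfactory receptor background 3.23. Kl (klotho), the co-receptor for FGF23, read 514, 448, 514 and 453 CPM in kidney and 1.34, 1.75, 3.47 and 3.41 CPM in left ventricle. Ren1 (renin) read 25.98, 30.2, 21.9 and 15.8 CPM in kidney, and the vitamin D receptor Vdr and the parathyroid hormone receptor Pth1r differed by 5.57 and 5.66. Cyp24a1, which breaks down active vitamin D, varied between kidneys, with 231, 45.8, 67.04 and 93.99 CPM, and the high value was that of mouse 14. Erythropoietin (Epo) was under 0.4 CPM in every library of both organs, and Agtr1a, Cyp27b1 and Fgf1 were the other 3 not called. With library size alone, Agtr1a and Fgf1 were called higher in kidney. Fgf1 was also called by DESeq2 and limma-voom, under each other filter, in the fit of all 24 libraries and without mouse 19.

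**Figure D2:**
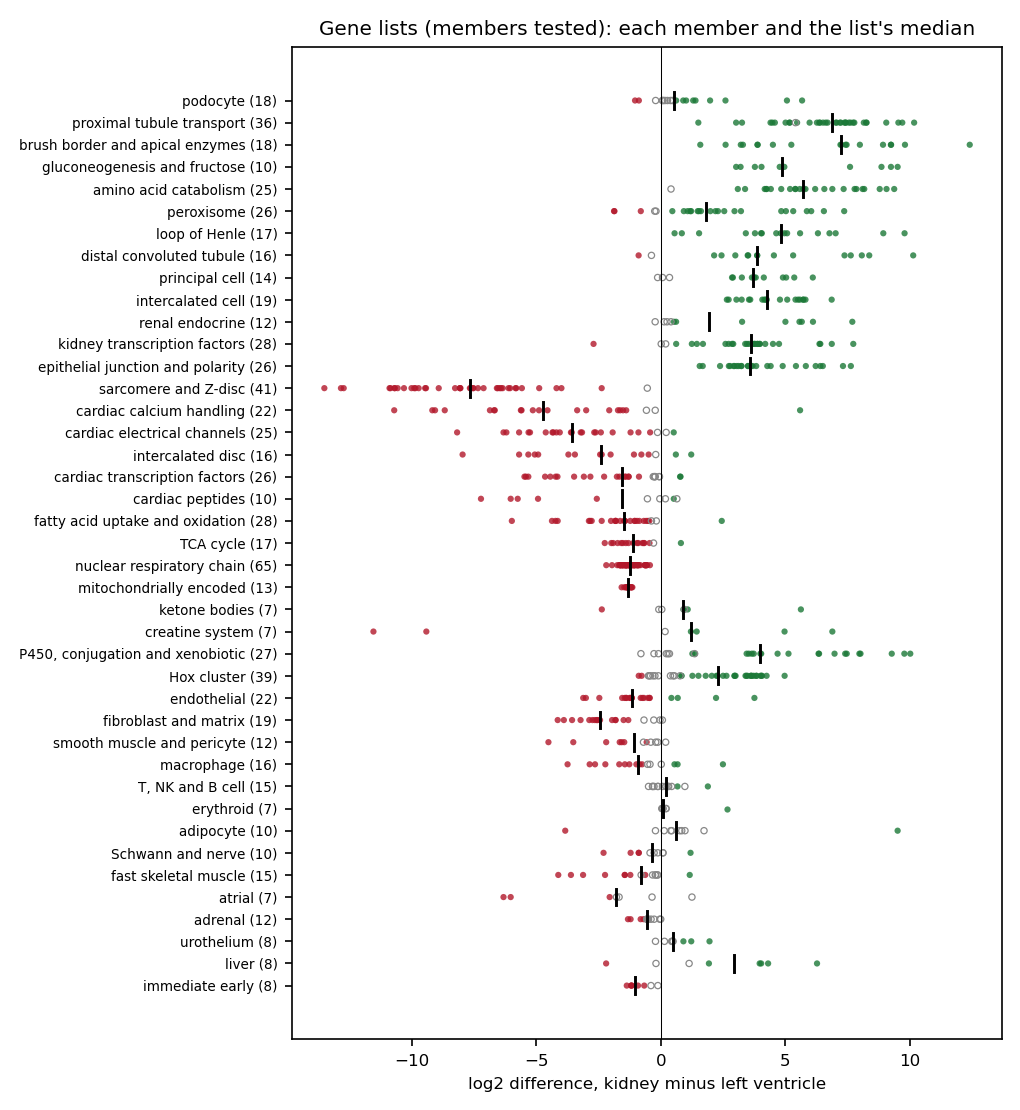
Log2 difference of each tested member of the 41 lists, with filled points for genes called by edgeR (green higher in kidney, red higher in left ventricle), open points for genes not called and a bar for the median. Tubule lists lie to the right (proximal tubule transport median 6.86), contractile lists to the left (sarcomere median -7.66), and the medians of the T, NK and B cell and erythroid lists near 0 (0.20 and 0.091). The Schwann and nerve list has a median of -0.35, with 4 of 10 genes called higher in left ventricle and 1 higher in kidney.

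The left ventricle side was led by the contractile apparatus. Of 41 sarcomere and Z-disc genes, 40 were called higher in left ventricle and 39 passed the 4-fold test, with a median log2 difference of -7.66. The list summed to 144173 to 201668 CPM in left ventricle and 342 to 398 CPM in kidney, or 15.5% ± 0.406 of all counts against 0.0409% ± 0.00459. Myh6, the alpha myosin heavy chain of the adult mouse ventricle (chr14:54941921-54966927), read 49808, 37389, 41031 and 51274 CPM in left ventricle and 3.94, 4.95, 2.87 and 3.85 CPM in kidney. Its log2 difference of -13.50 ± 0.41 was the largest of the comparison among genes with at least 50 CPM. Ttn (titin), the molecular spring of the sarcomere, had the highest CPM of any nuclear gene in left ventricle, 76179.9 ± 11188, but per exon kilobase it stood at 652 CPM where Myh6 stood at 6672. Actc1 (cardiac actin, log2 -12.84), Myl2 (the ventricular regulatory light chain, -12.73), Tnni3 (cardiac troponin I, -10.89), Tnnt2 (cardiac troponin T, -10.68) and Mybpc3 (cardiac myosin-binding protein C, -10.68) each read under 5 CPM in every kidney library. Csrp3 (muscle LIM protein) and Actn2 (the Z-disc alpha-actinin) differed by -10.85 and -10.56. Myh7, the beta myosin heavy chain, was lower than Myh6 in the ventricle at 288 CPM per exon kilobase and also near absent from kidney (3.57 ± 0.685 CPM). The 4 ventricles shared the sarcomere list to a like extent as a percent of counts, and their wider range in CPM came with their TMM factors (0.749 to 1.11). The gene not called was Tpm2, a tropomyosin of skeletal and smooth muscle, with 13.1, 16.1, 6.52 and 11.99 against 14.6, 11.4, 20.1 and 22.3 CPM. It was called higher in left ventricle with upper-quartile factors and without mouse 15. Oxygen storage and energy buffering went with the sarcomere genes: Mb (myoglobin) read 4166, 3389, 3804 and 4731 CPM in left ventricle and Ckmt2 (the mitochondrial creatine kinase of muscle) 1209.9, 979.9, 1038 and 1329 CPM, both under 1 CPM in every kidney.

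Motifs of muscle regulators were searched in the promoters of the ventricle genes in the same way. MEF2 sites were searched on both strands by the usual consensus and found in 44 of 391 ventricle genes (11.3%), 9 of 876 kidney genes (1.03%) and 318 of 16369 protein-coding genes tested (1.94%). CArG boxes, the sites of serum response factor, occurred in 4.35%, 1.03% and 1.67% of the same sets. Shares over all promoters in the table were 1.86% for MEF2 and 1.63% for CArG. MEF2 and CArG matches overlapped in no promoter. Windows from a thick filament protein, titin, calsequestrin, a muscle ribosomal protein and muscle phosphoglycerate mutase carry a MEF2 match, and those of cardiac actin and the ventricular essential light chain a CArG box, in capitals.
Mybpc3: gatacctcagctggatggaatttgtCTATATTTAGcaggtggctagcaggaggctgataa
Ttn: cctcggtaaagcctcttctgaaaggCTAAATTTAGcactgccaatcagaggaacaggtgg
Casq2: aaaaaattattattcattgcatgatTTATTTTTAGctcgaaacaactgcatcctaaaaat
Rpl3l: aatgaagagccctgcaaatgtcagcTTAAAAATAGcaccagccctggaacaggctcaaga
Pgam2: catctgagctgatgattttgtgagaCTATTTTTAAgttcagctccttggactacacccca
Actc1: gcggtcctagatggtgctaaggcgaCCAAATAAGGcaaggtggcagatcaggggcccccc
Myl3: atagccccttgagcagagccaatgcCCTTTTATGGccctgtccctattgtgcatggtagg
They lie at chr2:91118029-91118088, chr2:76982679-76982738, chr3:102086321-102086380, chr17:24732537-24732596, chr11:5803842-5803901, chr2:114052888-114052947 and chr9:110763568-110763627, with Ttn, Pgam2 and Actc1 on the minus strand.

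Transcription factors of the heart were mostly higher in left ventricle. Of 26 cardiac transcription factors, 18 were called higher in left ventricle, 2 higher in kidney and 6 were not called (median log2 -1.55). Nkx2-5, the homeobox factor of the heart field, read 12.3, 11.2, 11.01 and 14.9 CPM in left ventricle and 0.649, 0.5, 0.641 and 0.871 CPM in kidney. Gata4 and Tbx20, which act with it, differed by -5.32 and -5.42, Myocd (myocardin) by -5.47, and Hand2 and the ventricular factor Irx4 by -4.64 and -4.43. Mef2c, a factor that binds the motif above, read 65.5 ± 12.1 against 13.4 ± 0.723 CPM (log2 -2.27). The 2 higher in kidney were Esrrg and Ppara, regulators of oxidative metabolism in both organs, with log2 differences of 0.79 and 0.77.

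Calcium handling, excitation and coupling followed the sarcomere. Of 22 calcium genes, 19 were called higher in left ventricle (median log2 -4.72). Atp2a2 (SERCA2), the pump that refills the store, read 14537, 10709, 12155 and 15254 CPM, and kidney kept 371 ± 9.77 CPM. Pln (phospholamban), its inhibitor, read 2051, 1395, 1614 and 2280.0 CPM in left ventricle and 1.698, 1.92, 0.295 and 1.05 CPM in kidney. Ryr2, the release channel, Casq2 and Hrc, calcium buffers of the store, and Jph2, which holds store and surface membrane together, differed by -8.67, -9.17, -9.06 and -6.86. Ppp1r1a, a phosphatase inhibitor, ran against the list with 46.5, 52.7, 36.7 and 49.2 CPM in kidney and 0.947, 1.18, 0.68 and 1.05 CPM in left ventricle. Slc8a1, the sodium-calcium exchanger used by both cardiomyocytes and the distal nephron, was not called (701, 599, 332 and 329 against 759, 595, 594 and 849.6 CPM), and neither was Fkbp1b. However, DESeq2, limma-voom, upper-quartile factors and the fit without mouse 15 called Slc8a1 higher in left ventricle. So did the filter of 1 CPM in 4 libraries and the one over the olfactory receptor background. Of 25 channel and pacemaker-related genes, 22 were called higher in left ventricle. Kcnj3, an inward rectifier potassium channel, read 85.9, 58.6, 71.5 and 89.6 CPM in left ventricle, and the membrane protein Popdc2 220.3 ± 45.5 CPM. Kcne1, a potassium channel subunit, was called slightly higher in kidney (log2 0.52), a call lost without mouse 14 (0.40). Intercalated disc genes were called higher in left ventricle in 13 of 16 cases, among them the gap junction protein Gja1 (log2 -5.69), desmoplakin (Dsp, -5.32), N-cadherin (Cdh2, -5.06) and alpha-T-catenin (Ctnna3, -4.92). Ank3 and Tln2 were higher in kidney (1.22 and 0.60), and the call of Tln2 was lost without mouse 14 (0.59). Natriuretic peptide genes separated the organs in every mouse: Nppb read 42.9, 28.9, 27.3 and 41.9 CPM in left ventricle and under 0.4 CPM in kidney, and Nppa 33.7, 22.03, 48.95 and 19.2 CPM, highest in the library of mouse 19 that also held Myl7. Corin, the protease that activates these peptides, differed by -5.74.

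**Figure D3:**
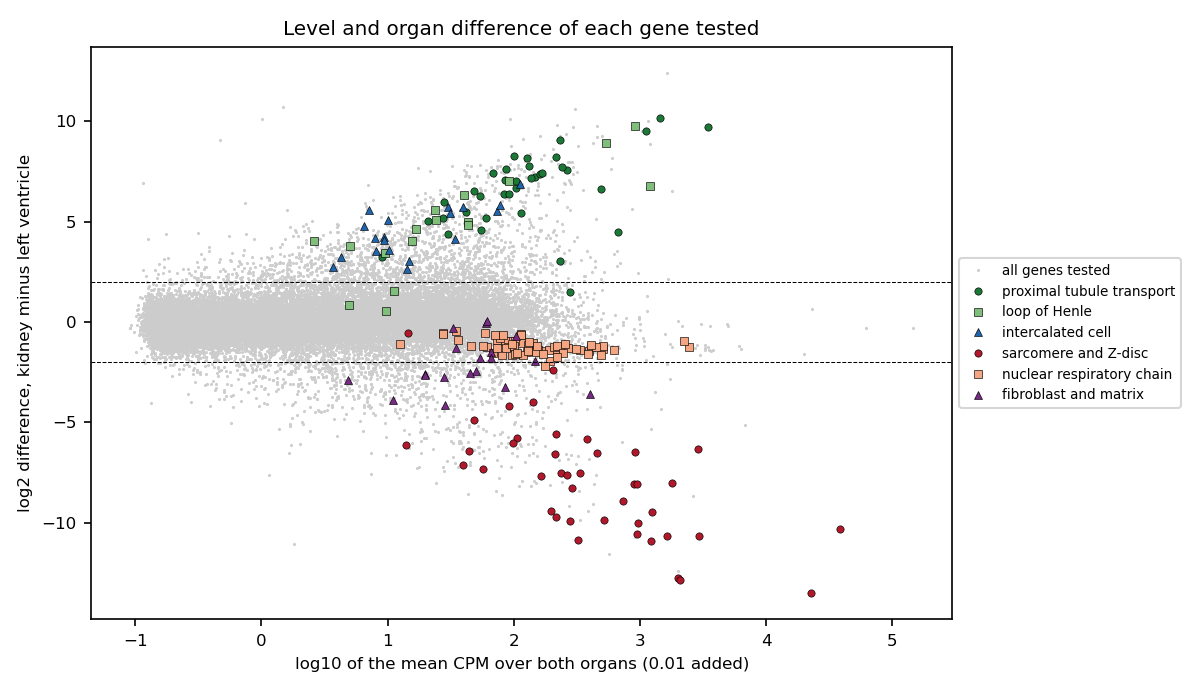
Mean CPM over both organs (log10, horizontal) against log2 difference (vertical) for all 40429 genes tested, with 6 lists coloured and dashed lines at a log2 of 2 and -2. Sarcomere genes reach the lower right corner (Myh6, -13.50), proximal tubule genes the upper right, and nuclear respiratory chain genes a band from -2.19 to -0.44.

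Listed respiratory chain, mitochondrially encoded and citric acid cycle genes differed in a smaller and more uniform way. Fatty acid, ketone and creatine genes ranged more widely (log2 -5.98 to 2.45, -2.37 to 5.62 and -11.53 to 6.89). All 65 listed nuclear respiratory chain genes tested were called higher in left ventricle (median log2 -1.25, range -2.19 to -0.44), and none passed the 4-fold test. Atp5g1, a c-subunit of ATP synthase, had the largest difference of the list, with 68.3, 68.3, 56.4 and 60.1 CPM in kidney and 304, 252, 259.7 and 344 CPM in left ventricle. Cytochrome oxidase subunits described below as isoform pairs were not on this list. Of them Cox6a1 and Cox8a were called higher in kidney (log2 2.52 and 2.01) and Cox7a2 higher in left ventricle (-0.48). Cox6a2, Cox8b and Cox7a1 were also called higher in left ventricle (-8.63, -6.92 and -5.89). All 13 mitochondrially encoded protein genes were called higher in left ventricle (median -1.33), among them mt-Co1 with 9833 ± 422 against 29774 ± 6592 CPM. These genes took 3.25% ± 0.108 of counts in kidney and 7.02% ± 0.377 in left ventricle, with no overlap (exact paired permutation test over 4 mice, two-sided p = 0.13, the smallest possible). The share of the 2 mitochondrial ribosomal RNAs did not differ detectably (20.3% ± 1.47 and 20.5% ± 1.09, exact p = 0.875). Of 17 citric acid cycle genes, 15 were called higher in left ventricle, 1 (Suclg2, the GTP-forming subunit, log2 0.81) higher in kidney, and Suclg1 was not called. Of 28 fatty acid genes, 25 were called higher in left ventricle. Fabp3, the heart fatty acid-binding protein, read 1406, 995, 1370.1 and 1885 CPM in left ventricle and 18.4, 23.2, 23.4 and 22.9 CPM in kidney. Plin5, which ties lipid droplets to mitochondria, and Hadhb, of the trifunctional protein, differed by -4.14 and -2.89. With library size alone the median was -0.96 for the respiratory chain and -0.81 for the cycle, with 64 of 65 and 14 of 17 genes called higher in left ventricle. Ketone enzymes did not move together: Bdh2 was higher in kidney (log2 5.62), the monocarboxylate carrier Slc16a1 higher in left ventricle (-2.37), and Oxct1, the enzyme that commits ketones to oxidation, was not called, with 964 ± 30.2 against 1028 ± 163 CPM, although with library size alone it was called higher in kidney (log2 0.21). Of 7 creatine genes, Gatm, Gamt and the kinases Ckb and Ckmt1 were called higher in kidney. Ckm and Ckmt2 were called higher in left ventricle, and Slc6a8 was not called. Gatm, which makes the creatine precursor, read 309.7, 306, 155 and 145 CPM in kidney and 1.81, 1.33, 1.66 and 2.68 CPM in left ventricle. Ckm, the muscle kinase that uses creatine, read 1.17 ± 0.446 against 769 ± 138 CPM.

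The organs also used different members of the same enzyme families. Among 24 pairs of related genes, the gene named for kidney or general tissue was called higher in kidney and its muscle partner higher in left ventricle in 15, and in 17 the leading member per exon kilobase changed between the organs. Percentages below are the part of a pair's summed CPM per exon kilobase that comes from the gene named first. Cytosolic creatine kinase was Ckb in kidney (14.6 CPM per exon kilobase, 97.3% of the pair) and Ckm in left ventricle (264, with Ckb at 2.31% of the pair). Cytochrome oxidase subunit 6a was Cox6a1 in kidney (99.7%) and mainly Cox6a2 in left ventricle (Cox6a1 12.5%), and subunit 8 followed the same pattern with Cox8a and Cox8b (98.4% and 17.9%). The outer-membrane carnitine transferase was Cpt1a in kidney (88.9%) and Cpt1b in left ventricle (7.3% Cpt1a). Enolase was Eno1 and Eno3 (96.2% and 2.49%), mitochondrial creatine kinase Ckmt1 and Ckmt2 (97.4% and 0.0412%), and the glucose carrier Slc2a2 and Slc2a4 (80.6% and 0.432%). Adenine nucleotide exchange was through Slc25a5 in kidney (82.7%) and Slc25a4 in left ventricle (6.14%). Isocitrate dehydrogenase was near balance in kidney, with cytosolic Idh1 at 54.5% of the pair, and almost wholly mitochondrial Idh2 in left ventricle (3.24%). Ribosomal protein L3 was Rpl3 in kidney (98.3%) and its muscle copy Rpl3l in left ventricle (13.3%).

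**Figure D4:**
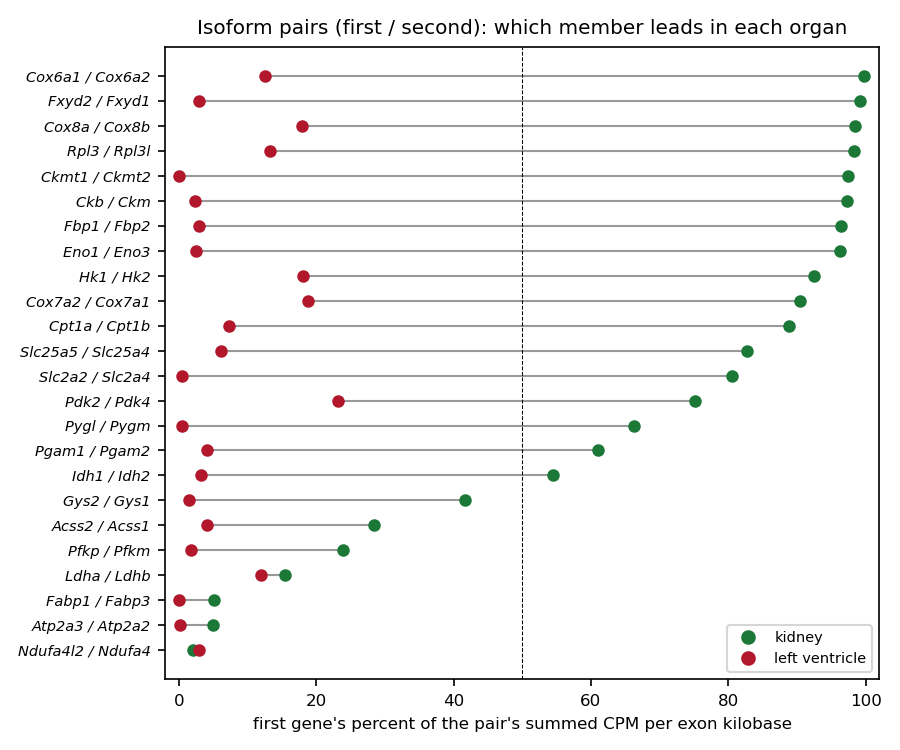
For each of 24 pairs, the percent of the pair's summed CPM per exon kilobase that the named gene on the left contributes, in kidney (green) and left ventricle (red), with a dashed line at 50. In 17 pairs the green point lies above 50 and the red point below it, as for Ckb and Ckm (97.3% and 2.31%).

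Some pairs were not called in opposite directions. Ldhb led Ldha in both organs (Ldha 15.4% in kidney and 12% in left ventricle), and Ldha was not called (log2 -0.19, which became 0.10 with library size alone). Pfkm was called higher in left ventricle (-4.22) while Pfkp was not called (-0.085), and its sign changed with the scaling. Hk1 and Cox7a2 were themselves called higher in left ventricle (log2 -0.65 and -0.48) although they led their pairs in kidney, and Hk2 and Cox7a1 differed by more (-6.83 and -5.89). The call of Cox7a2 was lost without mouse 14 (log2 -0.46) and without mouse 20 (-0.39). Fabp1 was low in both organs (0.806 ± 0.693 and 0.295 ± 0.0929 CPM) and not called. Acss1 missed the threshold (log2 -0.65, adjusted p = 0.055 by edgeR), and Ndufa4l2 and Ndufa4 were both higher in left ventricle.

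Cell types that both organs share were also unequal. Of 22 endothelial genes, 18 were called higher in left ventricle and 4 higher in kidney (median log2 -1.16). The kidney calls fell to 2 without mouse 14, without mouse 15 and with upper-quartile factors, where those of Emcn and Plat were lost, and the ventricle calls to 14 without mouse 14. Vwf read 79.5 ± 5.83 against 10.1 ± 2.63 CPM, and VE-cadherin (Cdh5) 128 ± 20.6 against 23.3 ± 3.99 CPM. The kidney-higher members included Plvap, the diaphragm protein of fenestrated vessels (60.6, 60.1, 39.3 and 52.5 CPM in kidney and 4.36, 3.34, 3.59 and 4.28 CPM in left ventricle), and Ehd3, known from glomerular endothelium (log2 2.22). Fabp4 passed as higher in left ventricle (log2 -3.11), but the kidney library of mouse 15 read 117 CPM where the other 3 kidneys read 16.8, 19.6 and 22.9. Of 19 fibroblast and matrix genes, 15 were called higher in left ventricle and none higher in kidney (median -2.44, and -1.78 without mouse 19). Decorin (Dcn) read 141, 101, 184 and 188 CPM in left ventricle and 16.7, 30.3, 8.63 and 15.4 CPM in kidney, and dermatopontin (Dpt) and lumican (Lum) differed by -4.14 and -3.89. The smooth muscle and pericyte list had 7 of 12 genes called higher in left ventricle and none higher in kidney (median -1.08). Pericyte genes Rgs5 and Kcnj8 were among the 7 (-3.51 and -2.19), and Myh11 of smooth muscle was among the 5 not called. Genes of both cell types were found among the called and among the uncalled. Macrophage genes split, with 10 of 16 higher in left ventricle and 3 higher in kidney. Cd163 and Lyve1, markers of perivascular resident macrophages, differed by -3.74 and -2.85, and Mertk, Csf1r and Mpeg1 by 2.49, 0.55 and 0.67. The call of Csf1r was lost without mouse 14 (0.50), and those of Csf1r and Mpeg1 with upper-quartile factors. Of 15 T, NK and B cell genes 2, Cd8a and Jchain, were called (both higher in kidney, log2 0.67 and 1.89). The call of Cd8a was lost without mouse 14, 15 or 20 (0.66, 0.58 and 0.69), and the median of the list changed sign with upper-quartile factors (-0.10). Of 7 erythroid genes 1 was called (3 with library size alone), Slc4a1 (log2 2.65), an anion exchanger that intercalated cells make too. Liver-type secreted genes were low in both and higher in kidney in 5 of 8 cases, with Alb at 14.6, 11.7, 6.02 and 5.92 CPM and Ttr at 8.91, 10.2, 50.2 and 29.3 CPM in kidney.

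Markers of neighbouring tissues were low. Of the 12 adrenal genes none was called higher in kidney, 4 were called higher in left ventricle and 8 were not called (median log2 -0.54). The list summed to 9.45 to 15.2 CPM in kidney and 15.9 to 18.9 CPM in left ventricle. The steroid hydroxylase gene Cyp11b1, not called, read 0.899, 1.14, 0.898 and 1.23 CPM in kidney and 1.81, 1.85, 1.46 and 1.08 CPM in left ventricle. Urothelial Upk1b was higher in kidney at 1.66, 2.902, 1.51 and 1.88 CPM, and its list summed to at most 18.99 CPM. The fast skeletal list summed to 30.2 to 45.8 CPM in kidney and 85.5 to 128 CPM in left ventricle, with Myl1 at 10.9, 10.1, 15.96 and 12.01 CPM and Mybpc2 at 26.1, 19.9, 39.1 and 37.5 CPM in left ventricle. In this list 8 of 15 genes were called higher in left ventricle, 1, a fast myosin gene, higher in kidney, and 6 were not called. Of the 7 atrial genes, Kcnj3, Nppa and Sln were called higher in left ventricle and 4 were not called. Sln differed by -2.05, but its left ventricle values were 0.18, 0.41, 10.4 and 0.263 CPM. The call of Sln was lost without mouse 19 (log2 -0.46) and without mouse 20 (-2.37). Of 8 immediate early genes, which respond to handling within minutes, 6 were called higher in left ventricle, with Jun at 30.6, 30.1, 15.9 and 23.02 CPM in kidney and 54.1, 34.4, 58.2 and 82.4 CPM in left ventricle and Egr1 at 7.03, 4.17, 2.86 and 4.19 and 16.3, 4.298, 4.74 and 12.99 CPM. Without mouse 20, 3 of the 6 calls were left: those of Egr1 (log2 -0.67), Fos (-0.76) and Ier2 (-0.51) were lost, the last 2 also with library size alone.

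In some genes the organ difference itself depended on the sex of the mouse. The test of organ by sex, on 2 females and 2 males with 2 residual degrees of freedom, called 581 of 40429 genes (1.44%), and in 498 of them the sexes lay further apart in kidney than in left ventricle. The difference was larger in males for 222 genes and larger in females for 359. The 6 autosomal genes with the smallest adjusted p in the male direction were low in female kidney. Slco1a1, the organic anion carrier, read 0.924, 0.658, 506 and 402 CPM in kidney and 0.572, 0.652, 0.813 and 0.62 CPM in left ventricle, and its organ difference was 8.96 log2 units larger in males (edgeR adjusted p = 1.34e-12). Slc7a13, an aspartate and glutamate carrier of the late proximal tubule, read 1.81, 1.201, 609 and 596 CPM in kidney, Acsm3, a medium-chain acyl-CoA synthetase, 4.31, 6.82, 668 and 563 CPM, and Cyp2j13 1.83, 2.001, 289 and 271 CPM. The protease inhibitor Pzp read 1.45, 1.79, 205 and 168 CPM and the hydroxylase Cyp4a12a 2.12, 1.77, 126 and 84.9 CPM. In the female direction Slc7a12, an amino acid carrier, read 188, 186, 2.65 and 5.02 CPM, the prolactin receptor Prlr 252, 243, 8.31 and 12.96 CPM, and the hydroxylase Cyp4a14 284, 184, 5.34 and 4.54 CPM. The export pump Abcc3 read 101, 115, 3.77 and 4.96 CPM, the growth factor Igf2 68.9, 116, 2.41 and 3.43 CPM and betaine-homocysteine methyltransferase Bhmt 96.4, 65.8, 4.18 and 5.04 CPM. In all 12 genes the kidneys of the 2 sexes did not overlap. The 12 were picked on these libraries for the smallest adjusted p of this test, so this largely follows from the choice. Female kidney exceeded left ventricle for Igf2 and male kidney fell short of it (14.1, 10.01, 10.8 and 18.4 CPM). Over 4 mice Igf2 was not called between the organs (log2 0.33 ± 1.002). Slco1a1, Pzp, Abcc3 and Prlr were likewise not called between the organs (edgeR adjusted p = 0.053, 0.0851, 0.0613 and 0.133). Other mice of the series showed the same order: at 86 weeks the mean of 2 female kidneys and of 2 male kidneys was 0.682 and 189 CPM for Slco1a1, 1.01 and 479 for Slc7a13, 190.0 and 12.2 for Prlr and 180.0 and 2.65 for Igf2. Kap, whose male kidneys were above its female kidneys, was not called (organ by sex -2.68, adjusted p = 0.487 by edgeR), and its male left ventricle of mouse 20 read 8.76 CPM.

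**Figure D5:**
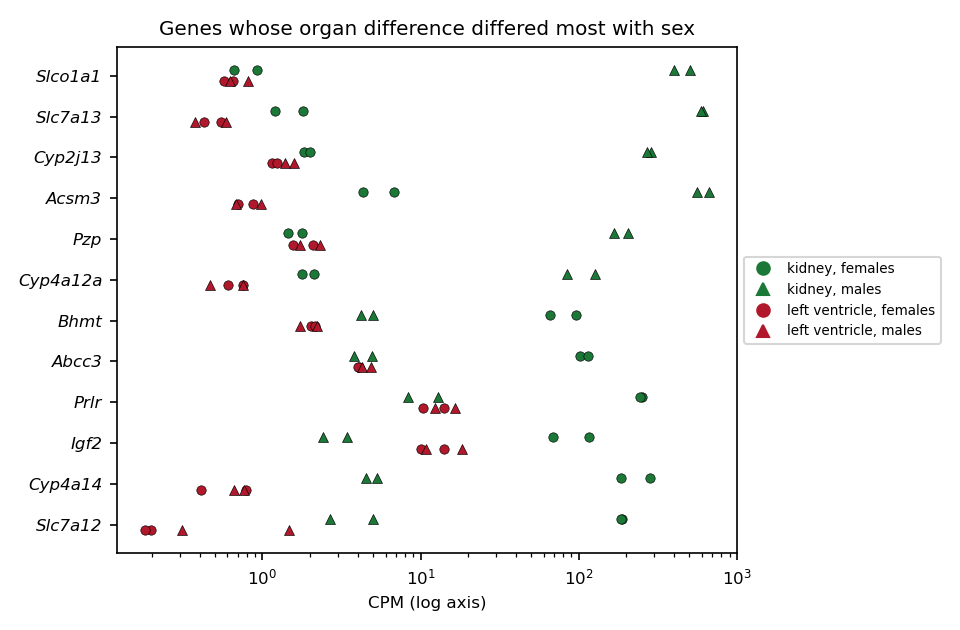
CPM of each library on a log axis for the 12 autosomal genes with the smallest adjusted p for organ by sex; circles are females, triangles males, green kidney and red left ventricle. Male kidneys lie far above female kidneys for Slco1a1 (0.924, 0.658, 506 and 402 CPM), and the 4 left ventricles lie near the female kidneys.

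The same contrast was then measured in the 4 mice of 86 weeks, which share no library with the young ones. There 1177 of 41474 genes (2.84%) passed the 4-fold test as higher in kidney and 626 (1.51%) as higher in left ventricle. Of the 1278 young kidney genes, 1275 were tested at 86 weeks, all had the same sign, 1274 were called and 1101 (86.2%) passed the 4-fold test again. Of the 678 young left ventricle genes all were tested, all had the same sign and were called, and 581 (85.7%) passed the 4-fold test. The 3 kidney genes not tested, Gm17028, Gm49948 and Gm20521, and the gene not called, Gm21983, are predicted models listed at 0 in every young left ventricle library. Lrp2 differed by 9.96 at 86 weeks, Umod by 10.10, Myh6 by -11.98 and Myl2 by -11.09. A test of organ by age in edgeR called 0 of 40569 genes (0%), with a smallest adjusted p of 0.104 and 1258 genes at an unadjusted p under 0.05. DESeq2 called 19, limma-voom 5 and edgeR without the mouse block 3. Among the smallest p were Bdh1, a ketone body dehydrogenase, which differed by 0.91 at 16.5 weeks and -0.53 at 86 weeks, Edn3 (endothelin 3, 0.79 and -0.77), Sh3gl2 (2.93 and 1.29) and Igha, an antibody heavy chain gene (1.95 and 4.10).

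Skeletal muscle of the same 4 young mice was set beside both organs. Among protein-coding genes of at least 5 CPM past the 4-fold test, skeletal muscle reached 25% or more of the ventricle level in 347 of 506 genes (68.6%), and 25% or more of the kidney level in 62 of 1109 (5.59%). It read 6.25% or less of the ventricle level in 73 and of the kidney level in 544. With all 24 libraries scaled together, Ttn read 219337 CPM in skeletal muscle and 66298 in left ventricle, and Ckm 9846 and 668. Myh6 read 7.299 CPM in skeletal muscle, Myl2 1.17, Tnni3 1.58, Pln 0.821 and Nppb 0.302, against 39049, 3506, 2146, 1591 and 30.6 in left ventricle. Dsp and Gja1 of the intercalated disc read 4.08 and 14.7 CPM in skeletal muscle. On the kidney side Egf read 101 CPM in skeletal muscle, above its left ventricle level of 19.4 CPM, and Npnt 15.6 CPM.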

How the data were processed

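The labels describe total RNA sequencing of whole tissue pieces. Reads were aligned with STAR 2.7.6a and processed with StringTie 2.1.1 on GRCm38.p6, per the submitters' processing notes. The authors deposited 1 table of raw counts per gene for 55401 genes and 24 libraries. How counts were derived, the annotation release and the strand setting are not given in the sources used here, so overlapping and antisense genes could not be told apart. All 24 columns carried a sample label. Coordinates and exon lengths came from GENCODE M21, for genes whose identifier and version matched.

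The 8 libraries were fitted in edgeR 4.0.16 (R 4.3.3): filterByExpr, TMM factors, mouse and organ as terms, quasi-likelihood test, Benjamini-Hochberg adjustment over all genes tested, and glmTreat for differences beyond 4-fold. Mouse numbers in the labels name the same animal in both organs. Over 9632 genes the deviations of same-mouse libraries correlated at 0.152, 0.12, 0.105 and 0.0812, those of other pairs of the same sex at 0.0312 to 0.0976, and those of unlike sex at -0.108 to -0.0546. Organ by sex and organ by age were interaction terms. DESeq2 1.42.0 and limma 3.58.1 (voom), other scalings and filters, and leaving out each mouse were alternatives. Total counts per library were 59199894 to 86164371. The edgeR fit was run on simulated counts of 40429 genes, of which 100 were changed 2-fold and 100 were changed 16-fold. It called 69% of the 2-fold and 100% of the 16-fold changes, and 29 of its 198 calls were false. The 4-fold test passed 0% and 100% of these changes.

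The comparison and the 41 gene lists were chosen with earlier results of these data known, as were the 24 isoform pairs. Genes were named by rule: the 12 largest differences each way past the 4-fold test at 50 CPM or more (predicted models, immune receptor segments, pseudogenes and X and Y genes left out), the 6 highest CPM per organ, up to 5 members per list with the largest differences at 5 CPM or more among those called, the 6 smallest adjusted p each way for organ by sex, the smallest p for organ by age, the isoform pairs, and defining markers of the organs. List members that went against their list or were not called, the marker genes Adipoq, Cfd, Ucp1, Myl4, Myl7, Myh4 and Sln, and Mef2c, Myh7, Aqp1 and Myh11 were chosen after their values were seen, as were the promoter windows shown. A few genes meeting these rules are not reported here.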

Additional observations from a re-analysis of the deposited data

Results flagged for a closer look

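In 50 of 550 sets of 4 libraries looked at (9.09%), 1 library lay apart from the other 3, with a gap to its nearest neighbour above Dixon's 95% critical value for 4 values. Chance alone sets apart about 1 in 20 such sets, and sets for different genes share their libraries. Adipoq, Cfd, Ucp1, Myl4, Myl7, Myh4 and Sln were among the genes looked at and were chosen after their values were seen. The 9.09% can therefore not be read against that rate. The left ventricle of mouse 20 was the library set apart in 21 of the 50 sets and the kidney of mouse 15 in 9, while the left ventricle of mouse 19 was in 8. In the left ventricle of mouse 20, above the other 3 in CPM, stood Acsm2 (3.32), Akr1c21 (1.12), Ass1 (6.38), Cyp2j5 (3.36), Edn3 (3.41), Fbp1 (2.03), Hao2 (2.80), Kap (8.76), Kcnj16 (3.29), Lrp2 (43.3), Mep1a (4.48), Miox (2.01), Napsa (10.4), Pck1 (7.19), Slc12a1 (6.26), Slc12a3 (9.19), Slc27a2 (13.5), Slc34a1 (7.61), Slc3a1 (3.25), Slc7a12 (1.47) and Umod (9.08). In the kidney of mouse 15, above the other 3 in CPM, stood Abcd2 (5.93), Adipoq (12.9), Cd163 (3.29), Cfd (89.4), Cox8b (2.73), Fabp4 (117), Hk2 (14.3) and Ucp1 (37.3). In the kidney of mouse 15, below the other 3 in CPM, stood Ank3 (276). In the left ventricle of mouse 19, above the other 3 in CPM, stood Cyp2e1 (2.88), Myl4 (50.002), Myl7 (36.1), Nr1h4 (1.54), Sln (10.4) and Upk1b (0.65). In the left ventricle of mouse 19, below the other 3 in CPM, stood Slc4a1 (3.25). In the left ventricle of mouse 15, above the other 3 in CPM, stood Myh4 (28.5) and Treh (1.32). In the left ventricle of mouse 15, below the other 3 in CPM, stood Fabp1 (0.157). In the kidney of mouse 19, above the other 3 in CPM, stood Bhlhe41 (6.31) and Myh4 (11.1). In the kidney of mouse 20, above the other 3 in CPM, stood Corin (6.71) and Jchain (6.34). In the left ventricle of mouse 14, below the other 3 in CPM, stood Epo (0.114) and Sh3gl2 (1.44). In the kidney of mouse 14, above the other 3 in CPM, stood Ldhb (741). In the kidney of mouse 14, below the other 3 in CPM, stood Fabp3 (18.4). The summed liver-type list stood apart in the left ventricle of mouse 19 at 9.02 CPM, and the share of counts of proximal tubule transport genes in the kidney of mouse 20 at 2.22%, below the other 3 kidneys.

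The organ difference itself, by edgeR's test of organ by sex, differed between 2 females and 2 males in 35 of the genes named. Kidney minus left ventricle was larger in males, in log2 units, for Acsm3 (6.73), Ces1f (2.18), Cyp2e1 (2.68), Cyp2j13 (6.87), Cyp4a12a (5.93), Myh4 (3.51), Pzp (6.70), Slc7a13 (8.70), Slco1a1 (8.96), Treh (1.62), Ttr (2.67) and Ugt2b38 (2.93). It was larger in females, with males minus females below 0, for Abcc3 (-4.80), Bhmt (-4.01), Cfd (-4.46), Cox8b (-3.11), Cyp4a10 (-1.65), Cyp4a14 (-5.85), Dcn (-1.60), Dpt (-1.48), Fabp1 (-3.25), Gatm (-1.49), Hao2 (-3.86), Igf2 (-5.21), Jun (-1.35), Lum (-2.05), Myh11 (-1.86), Myl7 (-4.71), Napsa (-2.88), Npnt (-2.18), Plat (-1.05), Prlr (-4.83), Slc7a12 (-7.68), Sln (-3.20) and Tpm2 (-1.43). Several of these genes are ones in which 1 library stood apart: Myh4, Myl7 and Sln in left ventricle and Cfd and Cox8b in kidney, and that library is 1 of the 2 of its sex.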

How the results depend on the processing

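The counts of genes called and past the 4-fold test stayed within 1.5 times of their values under all 15 alternatives (11879 to 14824 called and 1752 to 2075 past the 4-fold test with all mice), and so did the count at 86 weeks under RLE factors, DESeq2, limma-voom and the fit without the replicate block. Leaving out 1 mouse gave 9959 to 11372 called and 1790 to 1967 past the 4-fold test, and 8436 to 9293 called at 86 weeks. With no replicate block, 12402 genes were called against 12158 in the paired fit, and 1969 against 1956 passed the 4-fold test. Organ by sex fell to 184 genes with no low-count filter and was 425 to 785 under the other alternatives, and organ by age rose from 0 to 3 with no replicate block, 5 with limma-voom and 19 with DESeq2. The fits without the block at 86 weeks and by age were chosen after seeing the data. With predicted models and ribosomal RNA left out of the total, kidney minus left ventricle shares were larger: -5.16 points for mitochondrial protein genes, -20.97 for the sarcomere list, 3.08 for proximal transport, 22.4 for kidney 4-fold genes and -32.2 for ventricle 4-fold genes. Those in the main total were -3.77, -15.48, 2.29, 16.9 and -23.9.

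Signs that changed were those of genes not called and of small list medians, in log2 kidney minus left ventricle. With upper-quartile factors the values were the median of the list T, NK and B cell -0.10, the median of the list erythroid -0.20, Agtr1a -0.16, Cyp27b1 -0.039, Nr1i3 -0.11, Osr1 -0.27 and St6gal1 -0.22. With a filter of 1 CPM in 4 libraries the values were the median of the list T, NK and B cell -0.050, the median of the list erythroid -0.037, Osr1 -0.10 and St6gal1 -0.048. With library size alone the values were Epo 0.066, Fkbp1b 0.065, Ldha 0.10, Myh4 0.14, Nr3c2 0.16, Oxct1 0.21 and Pfkp 0.21. With no low-count filter the values were Nr3c2 0.040, Oxct1 0.088 and Pfkp 0.083. In the fit of all 24 libraries the values were Nr3c2 0.018, Oxct1 0.052 and Pfkp 0.083. With no replicate block in place of the paired fit the values were Osr1 -0.0040. Over the olfactory receptor background the values were Osr1 -0.019. Leaving out 1 mouse at a time gave the median of the list erythroid -0.024 to 0.30, the median of the list adipocyte -0.19 to 1.38, Adipoq -0.89 to 1.57, Agtr1a -0.0049 to 0.33, Cfd -0.38 to 2.46, Epo -0.41 to 0.0094, Igf2 -0.94 to 1.64, Myh4 -1.06 to 0.85, Nr1i3 -0.49 to 1.05, Nr3c2 -0.30 to 0.14, Osr1 -0.069 to 0.13, Oxct1 -0.16 to 0.026, Pfkp -0.25 to 0.17 and St6gal1 -0.11 to 0.28. The causes were not tested. Of 227 genes named, 177 kept their sign and their side of the threshold under every alternative that gave a value, and calls were lost in 61 and gained in 83 of 3391 combinations of gene and alternative. Of the organ by sex calls of 35 named genes, 39 of 209 combinations lost the call.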
